A study of Mus musculus with 8 samples.

Results

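Eph receptors are receptor tyrosine kinases, and their ligands, the ephrins, are held in the membrane of neighbouring cells, so contact between cells signals into both partners. A-class ephrins are attached by a lipid anchor and B-class ephrins span the membrane; receptors of each class mostly bind ephrins of their own class, and EphA4 also binds B-class ephrins. In the mouse pancreas, EphB2 and EphB3 are known for their role in branching of the early epithelium. The gene set described here held 10 members of this family, chosen as Eph and ephrin genes of pancreatic branching: the B-class receptors Ephb2, Ephb3 and Ephb4, the A-class receptors Epha2, Epha4 and Epha7, the B-class ephrins Efnb1 and Efnb2, and the A-class ephrins Efna1 and Efna5. All 10 had at least 1 probe on the array that carried the gene's name, and together they had 16 of the 41174 probes that were not controls, in an array of 27661 genes and unnamed transcripts. Probes were picked by gene name, from a list drawn up with earlier results of these data known.

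Pancreatic epithelium of mouse embryos, dorsal and ventral, was dissected at e15.5 and hybridised to 1-colour arrays. The Sox9 mutant group comprised 4 RNA pools from Sox9fl/fl; Rosa26-CreER embryos, in which both Sox9 alleles carry loxP sites. The wild-type group comprised 4 pools from Rosa26-CreER littermates without the floxed alleles. The dams had received tamoxifen (6 mg per 40 g) at e12.5, 3 days before dissection, so the pools of both genotypes share the recombinase and the drug. The strain was a cross of a Sox9-flox line of mixed FVB/N, C57Bl/6J and CD1 background with a Rosa26-CreER line on C57Bl/6J. The Rosa26 locus is active in most cell types, so recombination was not limited to epithelial cells, and each pool combined 4 pancreata, which hides the spread between single embryos. The comparison asks how these genes depend on Sox9, which encodes a transcription factor found in progenitors and later in ducts, while endocrine, acinar and duct cells form. All wild-type arrays were on 1 slide and all mutant arrays on the other, each slide with a scan time of its own, and an effect of slide or scan time cannot be told apart from one of genotype.

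All levels below are log2 intensities relative to the 75th percentile of their array, and a difference is the mutant mean minus the wild-type mean on that scale; levels of different probes are not comparable. Sox9 itself averaged 0.50 ± 0.08 in mutants and 1.83 ± 0.07 in wild type (SD, n = 4 pools each), which gave a log2 fold change of -1.33 (limma, adjusted p 7.96e-04); with median centring it was -1.73 and missed the threshold (adjusted p 0.110). That is the brightest of 3 Sox9 probes. In the fit over probes A_52_P577484 was at -2.51 (adjusted p 0.00133), while the dimmest, A_51_P451606, ran the other way without passing, at 0.63 (adjusted p 0.342), and at 0.23 (adjusted p 0.238) without mutant replicate 2. The array of mutant replicate 2 stood apart: its median processed signal was 756 scanner units, against 219 to 272 on the other 7 arrays, and 86.1% of its spots were well above background, against 69.6% to 74.0%. Results that rest on this array are therefore given with and without it. All 15 genes listed as marks of pancreatic epithelium were well above background on all 8 arrays. So were 21 of 21 endothelial, 20 of 20 mesenchymal, 18 of 18 neural and glial and 9 of 10 blood genes. Of the 19333 genes tested, 17365 had a probe well above background on all 8 arrays, so most genes met this mark. Genes known from other cell types were thus detected in the dissected tissue, though Isl1 among them is also expressed by endocrine cells. In such bulk samples fewer cells of a type and less RNA per cell cannot be told apart.

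One member was called. Epha4 was 1.57-fold higher in Sox9 mutants (limma, adjusted p 0.0485), a call that was lost in 10 of 18 alternative fits. The other 9 members did not pass the test at an adjusted p under 0.05. Across all 19333 genes tested, 2.13% passed as higher and 3.46% as lower in mutants, or 5.58% in all, so 1 higher and 0 lower among 10 members is close to that background. At an unadjusted p under 0.05 there were 2 members (limma), Epha4 and Efna1, against 25.5% of all genes. The median log2 fold change of the 10 members was 0.15, against -0.01 for all genes, and 8 of the 10 values were above 0, against 49.3% of all genes. With all 8 arrays that count depended on the scaling. Centring arrays on their median put the median of all genes at -0.40 and that of the members at -0.25. Only 1 value, that of Epha4, was then above 0. With this centring but without mutant replicate 2, a setting chosen after seeing the data, 8 of the 10 values were above 0. The members' median was then 0.12, against -0.06 for all genes. With the reported scaling and without mutant replicate 2, the members' median was again 0.15 and the count of members called was again 1. The background there was 6.76% higher and 10.6% lower, or 17.4% in all. In that fit 9 of the 10 values were above 0, against 44.2% of all genes. The mutant and wild-type pools did not overlap in 3 members (Epha4 and Efna1 higher, Ephb3 lower), against 25.7% of all genes, and in 4 members without mutant replicate 2, against 34.9%. The 10 members and their pools are shown in the plot of levels by genotype.

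**Figure D1:**
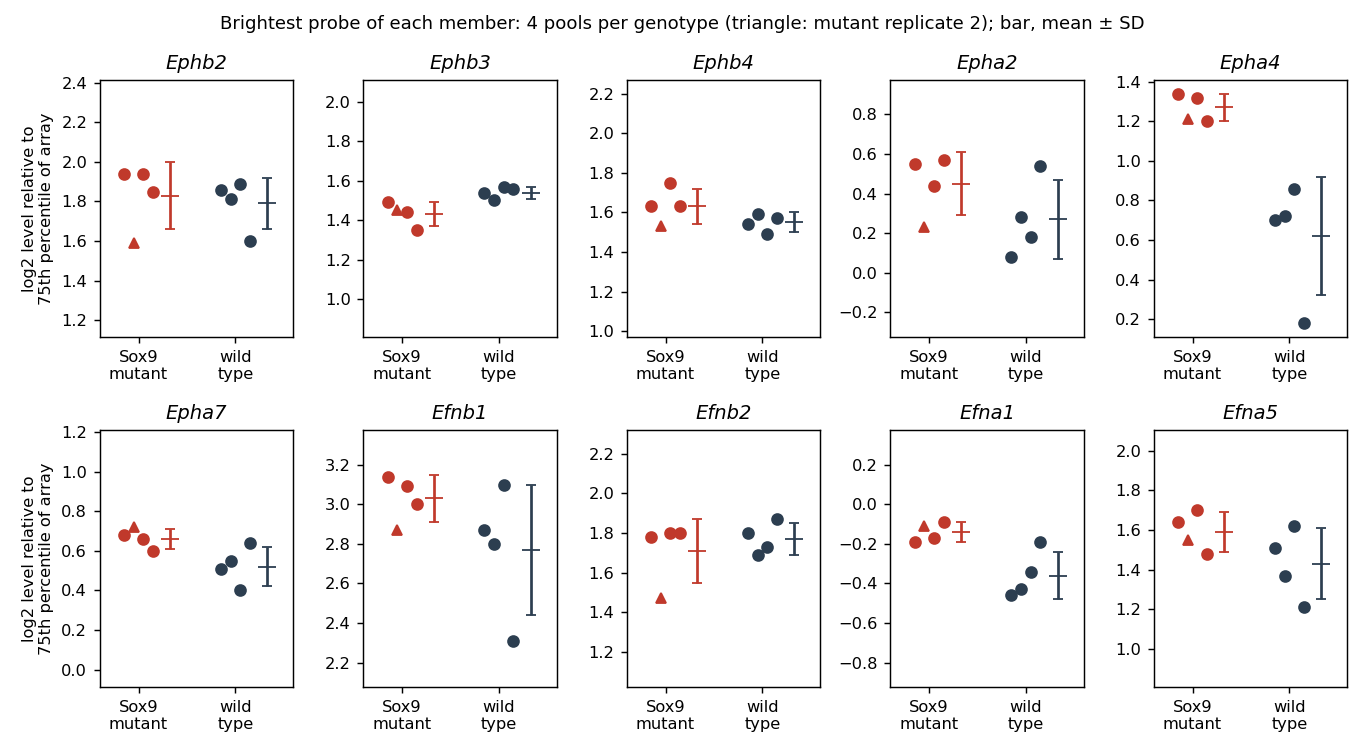
Log2 level of the brightest probe of each of the 10 members, relative to the 75th percentile of its array, in 4 Sox9 mutant pools (red, left) and 4 wild-type pools (dark, right); each vertical axis covers the same width, triangles mark mutant replicate 2, and bars give mean ± SD. Epha4 is the member whose groups stand furthest apart, at 1.27 ± 0.07 in mutants and 0.62 ± 0.30 in wild type.

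Epha4 encodes a receptor that binds ephrins of both classes. The promoter is shown because Epha4 was the member that passed the test, and that of Ephb3 because it was the only member whose mutant pools all lay below the wild-type pools. Both are the 250 bases before the annotated start, from RefSeq on GRCm38.p6, 5′ to 3′ on the gene's strand, with a CCAAT word on either strand in capitals.
Epha4, chr1:77515089-77515338, minus strand: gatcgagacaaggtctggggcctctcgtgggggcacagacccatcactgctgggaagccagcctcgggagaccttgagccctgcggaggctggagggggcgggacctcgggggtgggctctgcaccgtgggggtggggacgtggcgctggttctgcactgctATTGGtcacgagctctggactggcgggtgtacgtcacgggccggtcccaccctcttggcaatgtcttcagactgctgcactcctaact
Ephb3, chr16:21204545-21204794, plus strand: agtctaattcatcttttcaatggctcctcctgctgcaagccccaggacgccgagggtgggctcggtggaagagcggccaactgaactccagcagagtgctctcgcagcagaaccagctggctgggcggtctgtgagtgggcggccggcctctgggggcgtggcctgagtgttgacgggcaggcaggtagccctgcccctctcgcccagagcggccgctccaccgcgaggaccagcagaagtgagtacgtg
All 10 members had such a window, 12 in all since Epha7 and Efna1 have several annotated starts, and the 2 windows of Epha7 overlap. Neither ACAAAG nor ACAATG, words that SOX proteins are known to bind, was found on either strand of the 12 windows, and 25.2% of all 32851 promoter windows of this length held one of the pair. CCAAT, a word of the basal promoter, was found on either strand in 7 of the 12 windows, those of Ephb2, Ephb4, Efnb1, Efnb2, Epha4 and Epha7, against 33.8% of all windows. In Epha4 the match begins 88 bases before the start. The members' windows held 55.6% to 74.8% G and C bases, with 9 to 32 CpG dinucleotides, against medians of 52.4% and 6 over all windows. These are letters in a window, not binding sites.

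The brighter Epha4 probe (A_52_P288177, targeting NM_007936 at mm8 chromosome 1, 77251261 to 77251320, minus strand) read 1.34, 1.21, 1.32 and 1.20 in mutant replicates 1 to 4, against 0.70, 0.72, 0.86 and 0.18 in wild-type replicates 1 to 4. All mutant pools lay above all wild-type pools, the mutant pools were close together, and wild-type replicate 4 was far below the other wild-type pools. The difference was 0.65 log2 units (SE 0.15, 95% interval 0.31 to 0.99, adjusted p 0.0485, limma). Without mutant replicate 2 it was 0.67 (adjusted p 0.0309), and without wild-type replicate 4 it was 0.50 (adjusted p 0.0299).

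The call was close to the threshold and was lost when any of the other arrays was left out. Leaving out mutant replicate 1, 3 or 4 gave adjusted p values of 0.118, 0.114 and 0.0954 in that order. Leaving out wild-type replicate 1, 2 or 3 gave 0.120, 0.105 and 0.0725. In these 6 fits the log2 fold change stayed between 0.63 and 0.73. The plot of Epha4 by setting shows the same direction in all 18 alternatives. They used this probe, except where both Epha4 probes were averaged (0.75, limma, adjusted p 0.0286). The lowest value, 0.25 (adjusted p 0.662), came when arrays were centred on their median.

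A second, dimmer Epha4 probe on the same transcript (A_51_P221762, chromosome 1, 77252320 to 77252379) read -1.17, -0.82, -0.98 and -1.08 in mutants, against -1.82, -1.73, -1.73 and -2.20 in wild type. Again no mutant pool overlapped the wild-type pools, and again wild-type replicate 4 was lowest. In a fit over all 29462 probes above background, where 1.61% passed as higher and 2.23% as lower in mutants, 3.84% in all, this probe rose by 0.86 on the log2 scale (SE 0.13, adjusted p 0.0187, limma), or 1.81-fold. It was the only one of the 16 member probes called there; the brighter Epha4 probe had an adjusted p of 0.0599 in that fit. Without mutant replicate 2 both Epha4 probes passed, and no other member probe did, against a background of 7.16% of probes higher and 8.82% lower, 16% in all. The brighter one then differed by 0.67 (adjusted p 0.0330) and the dimmer by 0.80 (adjusted p 0.00965). The dimmer probe's call was lost without mutant replicate 1, 3 or 4 and without wild-type replicate 1, 2 or 3, at adjusted p values of 0.0511 to 0.0652. It was also lost with normexp background correction (0.57, limma, adjusted p 0.846), median centring (0.46, adjusted p 0.538) and a block for replicate number (adjusted p 0.0773).

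**Figure D2:**
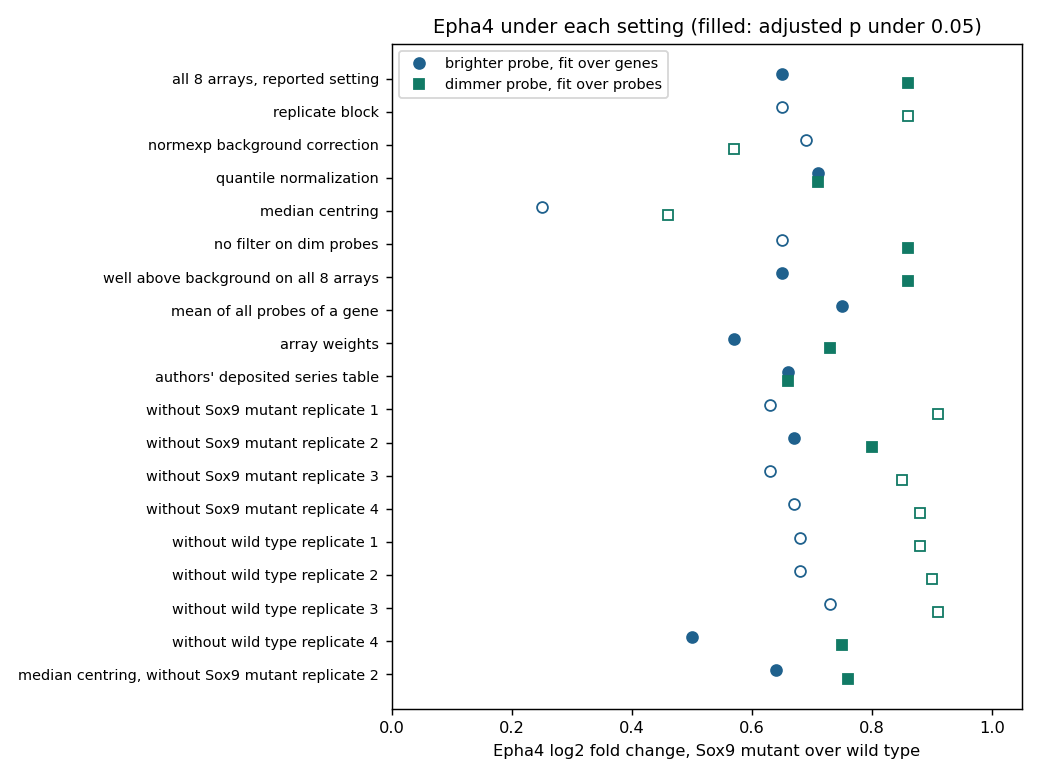
Log2 fold change of Epha4, Sox9 mutant over wild type, under the reported setting and the alternatives. Circles (fit over genes, 18 alternatives) show the brighter probe, except where a gene's probes were averaged, which shows both probes together. Squares (fit over probes, 17 alternatives) show the dimmer probe, to which that averaging gives no value. Filled symbols have an adjusted p under 0.05. All values are above 0, from 0.25 to 0.75 for circles and from 0.46 to 0.91 for squares. The circle at 0.75 is the average of both probes. The lowest value of either probe was that under median centring.

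Among the B-class receptors, Ephb2 and Ephb3 are the pair known from pancreatic branching, and Ephb4 is best known as the venous receptor for ephrin-B2. Ephb2 (A_52_P315155, NM_010142, chromosome 4, 135926763 to 135926822, minus strand) read 1.94, 1.59, 1.94 and 1.85 in mutants, against 1.86, 1.81, 1.89 and 1.60 in wild type. The groups overlapped throughout, with mutant replicate 2 and wild-type replicate 4 lowest, and the log2 fold change was 0.04 with a 95% interval of -0.21 to 0.29 (adjusted p 0.827, limma). It was 0.12 without mutant replicate 2 and -0.02 without wild-type replicate 4. The second Ephb2 probe (A_51_P163714), whose target spans 1398 bases of genome where most probes span 60, read -1.67, -0.68, -1.64 and -1.60 in mutants, against -1.79, -1.82, -1.66 and -1.99 in wild type. Mutant replicate 2 alone was high, and the log2 fold change of 0.42 (adjusted p 0.303) was 0.18 (adjusted p 0.171) without it.

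Ephb3 (A_51_P334199, NM_010143, chromosome 16, 21136935 to 21136994) read 1.49, 1.45, 1.44 and 1.35 in mutants, against 1.54, 1.50, 1.57 and 1.56 in wild type. The 4 mutant pools all lay below the 4 wild-type pools, by a narrow margin. The log2 fold change was -0.11 (SE 0.06, 95% interval -0.25 to 0.02, adjusted p 0.262, limma), so this difference did not pass the test. Its size depended on the scaling, at -0.02 (adjusted p 0.860) with quantile normalization and -0.51 (adjusted p 0.517) with median centring. With median centring but without mutant replicate 2 it was -0.15 (adjusted p 0.114).

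Ephb4 (A_52_P542612, NM_010144, chromosome 5, 137603849 to 137603908) read 1.63, 1.53, 1.75 and 1.63 in mutants, against 1.54, 1.59, 1.49 and 1.57 in wild type. Mutant replicate 2 lay within the wild-type range and the other mutant pools above it, and the log2 fold change of 0.09 did not pass (95% interval -0.07 to 0.24, adjusted p 0.430, limma). A second Ephb4 probe, A_52_P45596, designed on the partial sequence L25761 and with no coordinate in the files, read -1.41, -0.88, -1.28 and -1.38 in mutants, against -1.60, -1.48, -1.73 and -1.68 in wild type. All mutant pools were above all wild-type pools, with mutant replicate 2 furthest up. The log2 fold change was 0.38 (adjusted p 0.141), and 0.27 (adjusted p 0.0535) without that array.

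Of the other A-class receptors, Epha2 is widely present in epithelia, and Epha7 is best known from nervous system patterning. Epha2 (A_52_P518997, NM_010139, chromosome 4, 140601300 to 140601359) read 0.55, 0.23, 0.44 and 0.57 in mutants, against 0.08, 0.28, 0.18 and 0.54 in wild type. Mutant replicate 2 was lowest among mutants and wild-type replicate 4 highest in wild type, so the groups overlapped, and the log2 fold change of 0.18 did not pass (95% interval -0.11 to 0.46, adjusted p 0.385, limma). It was 0.25 (adjusted p 0.158) without mutant replicate 2. With array weights, which let arrays count unequally in the fit, it passed at 0.28 (limma, adjusted p 0.0368). That fit called 4785 of all 19333 genes.

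Epha7 (A_52_P504787, NM_010141, chromosome 4, 29132707 to 29132766) read 0.68, 0.72, 0.66 and 0.60 in mutants, against 0.51, 0.55, 0.40 and 0.64 in wild type. Only wild-type replicate 4 reached the mutant range, and the log2 fold change was 0.14 with a 95% interval of -0.02 to 0.30 (adjusted p 0.248). A much dimmer probe (A_52_P306236), designed on the cDNA clone AK033903, averaged -3.39 ± 0.85 in mutants and -3.67 ± 0.15 in wild type. Its log2 fold change was 0.28 (adjusted p 0.657). Mutant replicate 2 alone read -2.12, and leaving it out gave -0.15 (adjusted p 0.279).

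Neither B-class ephrin passed the test. Efnb1 (A_51_P388478, NM_010110, chromosome X, 95350885 to 95350944) read 3.14, 2.87, 3.09 and 3.00 in mutants, against 2.87, 2.80, 3.10 and 2.31 in wild type. The spread lay mainly in wild type, where replicate 4 stood well below the others, and the log2 fold change of 0.26 had a 95% interval of -0.14 to 0.65 (adjusted p 0.364, limma). Without wild-type replicate 4 it was 0.10. Efnb2, known as an arterial ephrin that also marks other embryonic tissues (A_52_P340073, NM_010111, chromosome 8, 8618149 to 8618208, minus strand), read 1.78, 1.47, 1.80 and 1.80 in mutants, against 1.80, 1.69, 1.73 and 1.87 in wild type. Mutant replicates 1, 3 and 4 lay inside the wild-type range and mutant replicate 2 below it, and the log2 fold change was -0.06 (95% interval -0.28 to 0.16, adjusted p 0.690). Without that array it was 0.02, with an interval of -0.12 to 0.16.

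The dimmer Efnb2 probe (A_51_P380970, chromosome 8, 8619194 to 8619253) read -3.49, -0.69, -3.35 and -3.39 in mutants, against -3.54, -3.70, -3.60 and -3.76 in wild type. The mutant pools were all higher, but mutant replicate 2 by far the most, and the log2 fold change of 0.92 (SE 0.62, adjusted p 0.381) was 0.24 (adjusted p 0.0705) without it. The other dim probes showed the same array: the mean level of the 6 probes that were not the brightest of their gene was -1.52 on mutant replicate 2, against -2.72 to -2.68 on the other mutant arrays and -3.03 to -2.81 on the wild-type arrays.

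The A-class ephrins gave the second smallest p of the set. Efna1 (A_51_P266683, NM_010107, chromosome 3, 89358176 to 89358235, minus strand), a ligand of EphA2, read -0.19, -0.11, -0.17 and -0.09 in mutants, against -0.46, -0.43, -0.34 and -0.19 in wild type. All mutant pools were higher, though the lowest of them and wild-type replicate 4 were both -0.19 after rounding. The log2 fold change of 0.22 (SE 0.08, 95% interval 0.04 to 0.40), or 1.16-fold, did not pass over all genes (adjusted p 0.132, limma), nor without mutant replicate 2 (0.21, adjusted p 0.105). With array weights it passed at 0.25 (adjusted p 0.0164), in a fit that called 4785 of all 19333 genes.

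Efna5, which in mouse islets is known to act with EphA receptors between beta cells, had 2 probes, on different transcript variants. The brighter one (A_51_P144319, on transcript variant 1, NM_207654, chromosome 17, 62290290 to 62290349, minus strand) read 1.64, 1.55, 1.70 and 1.48 in mutants, against 1.51, 1.37, 1.62 and 1.21 in wild type. The groups overlapped, and the log2 fold change was 0.16 (95% interval -0.08 to 0.41, adjusted p 0.351, limma). The dimmer one (A_51_P218009, on variant 2, NM_010109, chromosome 17, 62336320 to 62336379) averaged -4.64 ± 0.52 in mutants and -4.81 ± 0.23 in wild type, with a log2 fold change of 0.18 (adjusted p 0.667), and of -0.06 without mutant replicate 2.

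**Figure D3:**
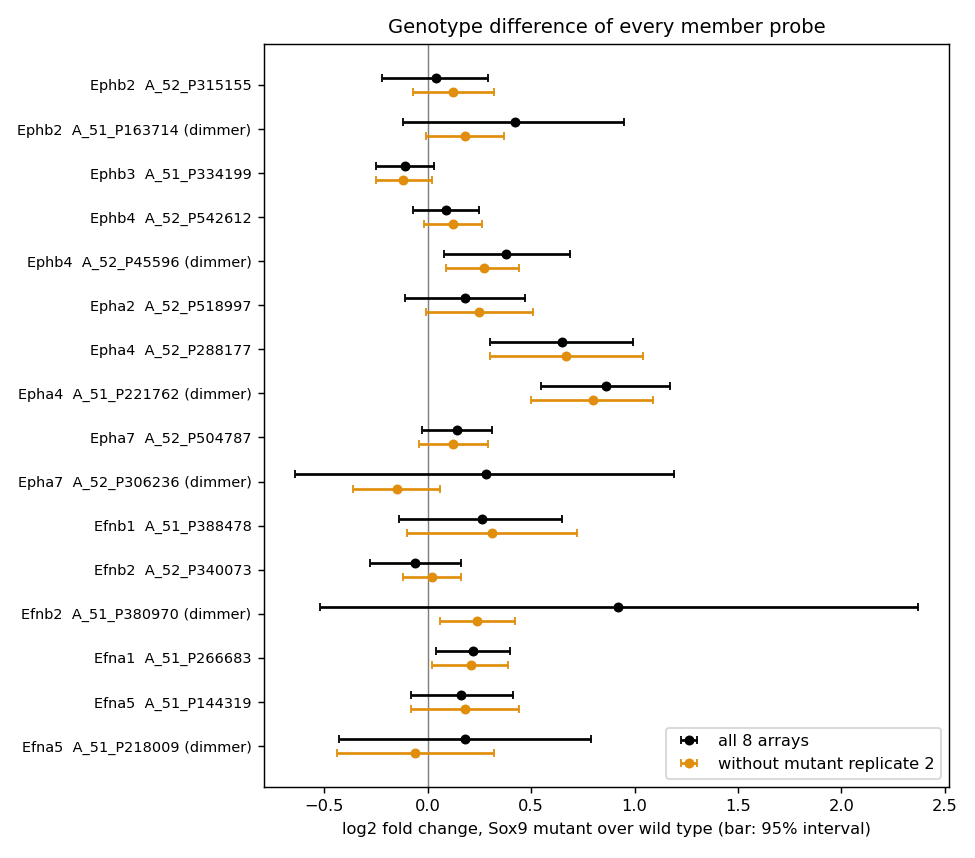
Log2 fold change, Sox9 mutant over wild type, of all 16 member probes from the fit over probes, with 95% intervals, for all 8 arrays (black) and without mutant replicate 2 (orange). Only the intervals of Epha4, Efna1 and the dimmer Ephb4 probe lie above 0 with all arrays, and the intervals of the dimmer Efnb2 and Epha7 probes shrink most when that array is left out.

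Taking all 16 probes, 1 was called, 4 had an unadjusted p under 0.05, against 23.6% of all probes, and 14 had a log2 fold change above 0, against 55.8%. The mutant and wild-type pools did not overlap in 6 of the 16, 5 of them higher in mutants, against 25.6% and 13% of all probes, and in 7 without mutant replicate 2, against 34.6%. All 6 dimmer probes had a value above 0, with a median of 0.40, but 4 of 6 and a median of 0.21 without that array. The 6 receptors had a median log2 fold change of 0.11 and the 4 ephrins one of 0.19.

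The lowest and highest pools were not the same in every member. Mutant replicate 2 had the lowest mutant level in 5 of the 10 brightest probes, Ephb2, Ephb4, Epha2, Efnb1 and Efnb2, and mutant replicate 4 in 4. Mutant replicate 3 had the highest in 4. Wild-type replicate 4 had the lowest wild-type level in 4, Ephb2, Epha4, Efnb1 and Efna5, and the highest in another 4, Epha2, Epha7, Efnb2 and Efna1, and wild-type replicate 3 had the highest in 5. Over all genes, the median absolute deviation from the own group's mean was 0.251 log2 units on mutant replicate 2 and 0.103 to 0.113 on the other mutant arrays, against 0.0671 to 0.100 on the wild-type arrays.

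The 2 members with the smallest p were set against all 15817 other tested genes with a current symbol, by the root mean square difference between level profiles over the 8 arrays after centring each gene on its own mean. Closest to Epha4 were Cep250, a centrosomal protein gene, at 0.0583 log2 units, Bmp2k, a kinase gene, at 0.0621, and Nf1, the neurofibromin gene, at 0.079. Their log2 fold changes were 0.62 (adjusted p 0.0328), 0.61 (adjusted p 0.0532) and 0.52 (adjusted p 0.114). The profiles include the genotype difference, so fold changes near that of the member follow from the choice and are no separate result. Closest to Efna1 were Nf2 at 0.0362, Uvrag at 0.0368 and Chst7 at 0.0468, with log2 fold changes of 0.21 to 0.24, none called. The call of Cep250 was lost without mutant replicate 1, 3 or 4 or wild-type replicate 1, 2 or 3, at adjusted p values of 0.0646 to 0.0912. It was also lost with the replicate block (limma, adjusted p 0.0752), normexp (0.0822), median centring (0.680), no filter on dim probes (0.0799) and averaged probes (0.129).

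Of the 12 other Eph receptor and ephrin genes, 10 were tested and 0 passed in either direction (limma), against 5.58% of all genes. At an unadjusted p under 0.05 there were 2 (limma), against 25.5% of all genes. Epha6 and Epha10 had no probe above background on enough arrays. The median log2 fold change of the 10 was 0.18, and 0.01 without mutant replicate 2, so their shift towards higher values rested on that array. Efna4, a further A-class ephrin, averaged -0.28 ± 0.06 in mutants and -0.53 ± 0.08 in wild type (log2 fold change 0.25, adjusted p 0.0750), and passed without mutant replicate 2 (0.22, adjusted p 0.0484). Efna2 averaged -1.26 ± 0.13 in mutants and -1.56 ± 0.13 in wild type (log2 fold change 0.30, adjusted p 0.119). In both genes the mutant pools all lay above the wild-type pools, as in Efna1 and in 10.6% of all genes. The pools overlapped in the A-class ephrins Efna5 and Efna3. The log2 fold change of Efna3 was 0.10, and -0.01 without mutant replicate 2.

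**Figure D4:**
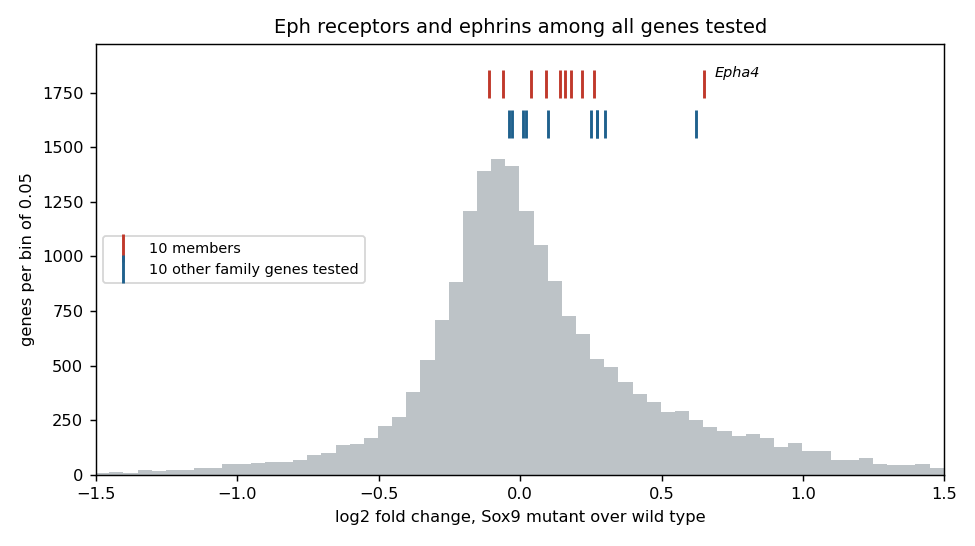
Histogram of log2 fold changes, Sox9 mutant over wild type, of the genes tested within 1.5 log2 units of 0 (382 genes lie outside), with the 10 members (red ticks) and the 10 other family genes tested (blue ticks) above it. Apart from Epha4 at 0.65, the members lie between -0.11 and 0.26, inside the bulk of all genes.

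Genes that act downstream of Eph receptors and ephrins were described with a list of 40, from adaptors and exchange factors to Src-family kinases, small GTPases and their effectors. All 40 were tested, 0 rose and 1 fell, against 2.13% and 3.46% of all genes, with 12 at an unadjusted p under 0.05 (limma), against 25.5%, and the median log2 fold change was -0.07. The gene that fell was Pak1, a kinase that Rac and Cdc42 activate, at -0.49 ± 0.06 in mutants and -0.17 ± 0.10 in wild type (log2 fold change -0.32, adjusted p 0.0443). Of the 8 fits that left out an array, Pak1 was called only in that without mutant replicate 2 (adjusted p 0.0269), and in the other 7 its adjusted p was 0.0848 to 0.122. Its call was also lost with normexp (adjusted p 0.224), median centring (0.517), no filter on dim probes (0.118) and averaged probes (0.130). Without mutant replicate 2, 1 gene of the list was higher and 5 were lower, against 6.76% and 10.6% of all genes.

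Of 28 genes of epithelial polarity and lumen formation, the processes that EphB signalling accompanies in the branching pancreas, 0 passed in either direction and 6 had an unadjusted p under 0.05 (limma). Of all genes, 5.58% passed and 25.5% had an unadjusted p under 0.05. The median log2 fold change of the 28 was -0.07. Their smallest p values (limma) belonged to Patj, a scaffold of the Crumbs complex (0.23, adjusted p 0.0899), and Stk11, a polarity kinase (-0.26, adjusted p 0.106). Patj was the 1 gene of the 28 called without mutant replicate 2, at 0.27 (limma, adjusted p 0.0265), against 17.4% of all genes.

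Markers of other cell types moved as follows beside these results, and their part in the rise of Epha4 was not tested. Of 18 neural and glial genes, 0 rose and 5 fell (limma), against 2.13% and 3.46% of all genes. The calls were led by Sox10, a glial precursor factor (log2 fold change -1.05, adjusted p 0.00588), S100b (-1.63, adjusted p 0.00762) and Ngfr (-0.73, adjusted p 0.0315). The mean level of the 18 genes was -1.35 to -0.84 in mutants and -0.81 to -0.29 in wild type, so it was lower in every mutant pool. Without mutant replicate 2 there were 6 calls, all lower, against 6.76% of all genes higher and 10.6% lower. The genes called were 2, Sox10 and S100b, without mutant replicate 1 or 4 or wild-type replicate 1, 3 or 4. The count was also 2 with normexp or no filter on dim probes, and 1 with median centring or averaged probes. Sox10 missed the threshold with median centring (adjusted p 0.208) and averaged probes (0.225), and Ngfr with these (0.396 and 0.0663), normexp (0.158) and no filter (0.0750).

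Of 20 mesenchymal genes, 2 rose and 1 fell, against 2.13% and 3.46% of all genes, with a mean level of 2.21 to 2.33 in mutants and 2.20 to 2.38 in wild type. Those that rose were Nkx3-2 (0.57, adjusted p 0.0137) and Barx1 (0.27, adjusted p 0.0379), both factors of foregut mesenchyme, and the one that fell was Isl1 (-0.88, adjusted p 0.00995), which endocrine cells also express. Among the mesenchymal genes 3 were higher and 3 lower without mutant replicate 2, against 6.76% and 10.6% of all genes. Leaving out any 1 of the other 7 arrays ended the call of Barx1, at adjusted p values of 0.0552 to 0.122, and leaving out wild-type replicate 3 that of Nkx3-2 (adjusted p 0.0530), so that 1 gene of the list was called there. Barx1 also lost its call with no filter on dim probes (adjusted p 0.116) and averaged probes (0.0546). With normexp or median centring 0 of the 20 were called. Nkx3-2 was then at 0.33 (adjusted p 0.900) and 0.17 (adjusted p 0.756), and at 0.36 (adjusted p 0.221) with quantile normalization.

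Of 21 endothelial genes, which bear on the vessel genes Efnb2 and Ephb4, 0 passed in either direction and 1 had an unadjusted p under 0.05 (limma), and 0 passed without mutant replicate 2. Of all genes, 5.58% passed, 25.5% had an unadjusted p under 0.05, and 17.4% passed without mutant replicate 2. The mean level of the 21 endothelial genes was 1.36 to 1.51 in mutants and 1.38 to 1.55 in wild type. Gja5, an arterial connexin gene, had the smallest p of them (-0.53, adjusted p 0.0956), followed by Plvap (-0.18, adjusted p 0.332). Of 10 blood genes 0 passed and 3 had an unadjusted p under 0.05, with the smallest p for Cd52 (0.46, adjusted p 0.0758) and Lyz1 (-0.39, adjusted p 0.0835), and their mean level was 0.03 to 0.90 in mutants and 0.47 to 0.94 in wild type. Cd52 passed without mutant replicate 2 (0.36, adjusted p 0.0322), and 1 blood gene was called without mutant replicate 3.

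Of the 15 pancreatic epithelial genes, 2 rose and 1 fell (limma), against 2.13% and 3.46% of all genes. Their mean level was 2.69 to 2.96 in mutants and 2.82 to 2.94 in wild type. Onecut1 (0.94, adjusted p 0.0187) and Cldn6 (0.46, adjusted p 0.0399) were higher and Pdx1 (-1.05, adjusted p 0.00168) lower. Of the 15 genes, 5 were higher and 1 lower without mutant replicate 2, against 6.76% and 10.6% of all genes. Pdx1 alone was called without mutant replicate 1 or 3 or wild-type replicate 1, and with normexp, where Onecut1 had an adjusted p of 0.0643 and Cldn6 one of 0.351. With median centring 0 of the 15 were called, and Cldn6 was at 0.07 (adjusted p 0.911). Cldn6 also missed the threshold with no filter on dim probes (adjusted p 0.0993) and averaged probes (0.0525). The call of Cldn6 held without mutant replicate 2 or wild-type replicate 2 and was lost without any other array, and that of Onecut1 was lost also without wild-type replicate 2.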

How the data were processed

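The members and gene lists were chosen with earlier results of these data known. Each array held Cy3-labelled RNA amplified from about 250 ng. Per the file headers, the deposited array files come from Agilent Feature Extraction (version 9.5.3.1, design 014868, mm8 coordinates): a processed intensity in linear scanner units, background-subtracted and detrended within the array but not normalized between arrays, and raw spot and background intensities. The deposited series table also holds intensities, with the authors' steps not given in the sources used here beyond the name limma; it served as an alternative. Its scale was linear with no centring of genes, its normalization stays unknown, and its columns had median log2 values of 8.30 to 8.47.

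Control and outlier spots were left out (no member spot was), spots of a probe were averaged as log2, and each array's 75th percentile was subtracted. Probes that the software called well above background on at least 4 of 8 arrays were kept, and the brightest probe per gene by its mean over all arrays gave 19333 genes. A second fit used all 29462 probes. Names came from RefSeq (GRCm38.p6): 24402 probes matched by accession, 6284 by symbol, 2418 by synonym, and 8070 had no current symbol. Genotype was the only term in limma 3.58.1 (R 4.3.3, data.table package 1.17.8, two-sided, Benjamini-Hochberg over everything fitted), with calls at an adjusted p under 0.05. The fit was tried on simulated data with independent normal noise. The spread of that noise was taken without mutant replicate 2, so the simulated data held no such deviant array. Named genes were all members, Sox9, called genes of each list (up to 5 for signalling and polarity, up to 3 for cell types, all for the family) or the 2 with the smallest p, and the 3 nearest profiles of 2 members. Alternatives covered background correction, scaling, filters, probe choice, array weights, the series table, a replicate block and leaving out each array. The number of arrays limits the precision.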

Additional observations from a re-analysis of the deposited data

Results flagged for a closer look

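In 4 of 32 groups of 4 pools (16 probes in 2 genotypes), 1 pool lay further from its neighbours than Dixon's 95% limit allows, where chance gives about 1 in 20. All 4 were mutant replicate 2, and 3 of the 4 were in a probe that was not the brightest of its gene. The level of Ephb2 probe A_51_P163714 was -0.68 in that pool and -1.67 to -1.60 in the other mutant pools. That of Efnb2 probe A_51_P380970 was -0.69 against -3.49 to -3.35, and that of Epha7 probe A_52_P306236 was -2.12 against -3.83 to -3.78. The brightest Efnb2 probe, A_52_P340073, was low there instead, at 1.47 against 1.78 to 1.80.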

How the results depend on the processing

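The number of genes called was 1079, and 145 with the replicate block, 80 with normexp (16 higher and 64 lower, against 411 and 668), 45 with median centring, 426 without the filter on dim probes, 711 with probes averaged, 4785 with array weights and 2184 with the series table; leaving out an array gave 363 to 3356. Members called, 1 as reported, were 0 with the replicate block, normexp, median centring or no filter, 3 with array weights (Efna1, Epha2 and Epha4), and 0 to 1 with an array left out. Member probes called, 1 as reported, were 0 with the replicate block, normexp or median centring, 2 with quantile normalization, the filter on all 8 arrays or the series table, 5 with array weights, and 0 to 2 with an array left out. Replicate numbers showed no clear pairing of the pools. The correlations of same-numbered pools' deviations across genes were 0.0191, -0.0234, 0.0547 and 0.128, and 1 of 4 mutant pools correlated best with its own number. Deviations were taken from group means that include mutant replicate 2, so these correlations cannot decide whether the pools were paired. With the replicate block Epha4 was at 0.65 (adjusted p 0.0967), and the calls in the lists were 0 for signalling and mesenchyme and 1 for neurons and glia and for pancreatic epithelium. Median centring without mutant replicate 2, chosen after seeing the data, gave 3425 genes, 1 member and 2 member probes.

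Median centring moved the log2 fold changes of all genes together. Their median went from -0.01 to -0.40 with all 8 arrays, and was -0.06 with this centring without mutant replicate 2. With all 8 arrays median centring turned Ephb2 (-0.36), Ephb4 (-0.31), Efnb1 (-0.14), Epha2 (-0.22), Epha7 (-0.26), Efna1 (-0.18), Efna5 (-0.23), Efna4 (-0.15), Efna2 (-0.10), Patj (-0.16), Barx1 (-0.13), Nf2 (-0.19), Uvrag (-0.19), Chst7 (-0.15) and the dimmer probes of Ephb4 (-0.01), Epha7 (-0.12) and Efna5 (-0.22). With this centring but without mutant replicate 2, all of these except the dimmer Epha7 and Efna5 probes were above 0. The brightest probes of the members among them were then at 0.09 (Ephb2, Ephb4 and Epha7), 0.15 (Efna5), 0.18 (Efna1), 0.22 (Epha2) and 0.28 (Efnb1). Efnb2 changed sign with normexp (0.08), quantile normalization (0.03), averaged probes (0.43), array weights (0.05), the series table (0.10) and without mutant replicate 2 (0.02, the highest of -0.09 to 0.02 with an array left out). Ephb2 did so without wild-type replicate 4 (-0.02 to 0.12 over the arrays) and Gja5 with averaged probes (0.89). The dimmer Epha7 probe changed sign with normexp (-0.29), quantile normalization (-0.09), array weights (-0.07), the series table (-0.05) and without mutant replicate 2 (-0.15 to 0.42 over the arrays, or -0.18 with median centring). The dimmer Efna5 probe did so under the same settings (-0.47, -0.25, -0.09, -0.14 and -0.06 to 0.31, or -0.09). The cause was not tested. All member probes were well above background on all 8 arrays, where the median negative-control signal was 20.4 scanner units on mutant replicate 2 and 4.43 to 6.47 on the other arrays.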
